A study of Mus musculus with 8 samples.

Results

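Whole lungs of Snx5-/- mouse embryos at E18.5 were compared with and without air breathing on 4 of the 8 arrays of the series. The 2 arrays titled as air-breathing mutant lung (Snx5-/- air) were set against the 2 titled as mutant lung (Snx5-/- non-air). The other 4 arrays, 2 of Snx5+/+ air and 2 of Snx5+/+ non-air lungs of the same age, shared the estimate of the spread and were used to ask where the air difference depended on genotype. All 8 arrays were labelled with the strain C57BL/6. The Snx5-/- embryos carried a β-geo gene trap within intron 7 of Snx5, from the XA155 embryonic stem cell line, which was backcrossed to C57BL/6 before heterozygotes were interbred. In the air-breathing test of the study, pups were delivered by caesarean section, fluid was cleared from the airway and they were kept warm in room air. The sources used here do not give how long the lungs of the arrays had breathed or how the non-air lungs were held. The labels do not give litter or sex, so handling, time after delivery and litter cannot be told apart from air. Each group is 2 arrays whose separate origin the labels do not state beyond a replicate number. The study's methods call the arrays of each genotype 2 biological replicates, without naming air or litter.

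The direction of every difference rests on one of 2 sets of labels. The deposited log2 table was used under its own column labels. In the deposited table of non-normalized intensities, 8 of 8 signal columns matched the log2 column of the opposite air state, of the same genotype and replicate number (the lowest of these rank correlations was 0.999751, and the highest of all other pairs was 0.971712). The intensity columns thus carry exchanged air labels relative to the log2 table, while 8 of 8 detection p-value columns followed the log2 labels. Under the labels of the intensity columns every direction below would turn round. The 2 non-air mutant samples also bear a free-text description that calls them wild type, in conflict with title and genotype. Snx5 measured 7.29 and 7.10 in Snx5-/- air, 7.23 and 7.24 in Snx5-/- non-air, 7.84 and 8.42 in Snx5+/+ air, and 7.88 and 7.85 in Snx5+/+ non-air lungs (log2 intensity). All 4 Snx5-/- arrays lay below all 4 Snx5+/+ arrays, but this probe was dim throughout, and at a detection p-value under 0.01 it was detected on 0 of the 4 Snx5-/- and on 1 of the 4 Snx5+/+ arrays. The place of the probe relative to the gene trap was not determined, and a second Snx5 probe was not detected on any of the 8 arrays (7.36 to 7.55). Between 47.5% and 49.4% of the 25697 probes were detected per array, and surfactant protein C, the defining product of lung type II cells, was bright on every array (15.63 to 15.91).

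At birth the lung passes from fluid secretion to gas exchange. Fluid is cleared from the airspaces, surfactant lowers surface tension, the pulmonary vessels widen, and stretch, oxygen and stress hormones reach cells that had been sheltered. Immediate-early genes such as Fos and Egr1 are switched on within minutes of such stimuli. Interferon-induced genes answer to interferons, through STAT transcription factors, and include the machinery that loads peptides on MHC class I molecules. Genes on X and Y were left out of the description. For these chromosomes 5 genes passed the test, 3 of them on Y and all 3 higher in air lungs, so that sex and air cannot be told apart between these arrays.

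Of 9124 named genes tested, 55 were higher (0.603%) and 12 were lower (0.132%) in Snx5-/- air than in Snx5-/- non-air lungs. Calls rested on limma, with a threshold of 0.05 on the p adjusted by Benjamini-Hochberg and of 0.35 on the size of the log2 fold change. Without adjustment, 1076 genes had a p under 0.05. The median log2 fold change over the genes tested was -0.0035 and 49.2% of the values were positive. All 67 called genes had air arrays that did not overlap the non-air arrays, as did 41.5% of all genes tested. A change above 2-fold was measured for 10 called genes, 9 higher and 1 lower. The count depended on every Snx5-/- array: leaving out 1 of the 4 gave 13 to 20 higher and 1 to 5 lower genes. Among the called genes named here, 12 were called in each of the 8 fits that left out 1 array: Lrrc57, Rmdn3, Nlrc5, Fcgr4, Ifit3, Plac8, Ccndbp1, Inmt, Edn1, Gbp2, Bhlhe40 and Cxcl1. The other genes that the naming rule chose and whose brightest probe was called lost their call in 1 to 6 of those fits. Called genes outside this set, such as Rpap1, Flrt3, Ahsg and Tap1, were not followed through those fits. With only 2 arrays a group, an exact permutation test of a single gene could not go below p = 0.333.

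**Figure D1:**
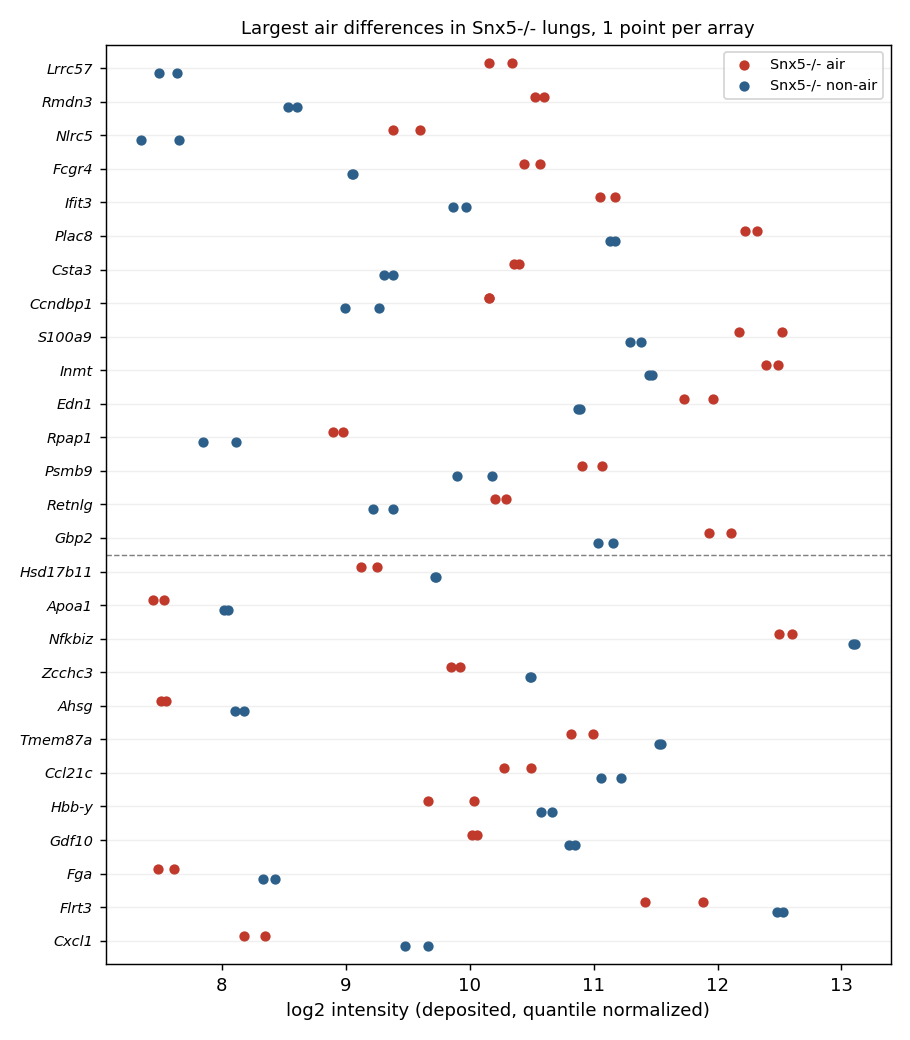
Log2 intensity (x axis) of the 15 called genes with the largest increase (above the dashed line) and of the 12 called genes that were lower (below it), 1 point for each Snx5-/- air array (red) and each Snx5-/- non-air array (blue), for the called probe. The points of both groups are apart in every row, and the widest gap is that of Lrrc57.

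Interferon-induced genes held more calls than any other list. Of 40 listed genes 29 were tested, 7 were called higher and 0 lower, and 28 of the 29 differences were positive. Their median log2 fold change was 0.26, against -0.003 over all genes, and in Snx5+/+ lungs the median of the same genes was -0.16. Ifit3, which binds viral RNA in a complex with its relatives, had log2 intensities of 11.05 and 11.17 in Snx5-/- air lungs, against 9.97 and 9.86 in Snx5-/- non-air lungs (2.29-fold, log2 fold change 1.19, SE 0.11, adjusted p = 0.000288). Its level in Snx5-/- air lungs was above that of all 6 other arrays. The other tested probes of Ifit3 gave 0.53 and 0.34 (adjusted p = 0.0554 and 0.444), and near-identical copies of this gene may share its signal. Gbp2, a guanylate-binding protein that attacks vacuoles of intracellular pathogens, had 12.11 and 11.93 in Snx5-/- air against 11.15 and 11.04 in Snx5-/- non-air lungs (1.90-fold, log2 fold change 0.93, SE 0.10, adjusted p = 0.00158). Both air arrays were again above all 6 others. Igtp, an immunity-related GTPase of the same defence, had 10.86 and 10.82 in Snx5-/- air against 10.22 and 10.02 in Snx5-/- non-air lungs (1.64-fold, adjusted p = 0.0179). Gbp3 rose by 0.59 and Lgals3bp, a secreted galectin-binding glycoprotein, by 0.50 on the log2 scale (adjusted p = 0.0239 and 0.0440). The members least different were Usp18, at -0.03, and Irgm1, at 0.02. Without any 1 of the 4 Snx5-/- arrays Igtp and Lgals3bp were no longer called, and Ifit3 and Gbp2 were. The call of Lgals3bp was also lost in other fits that left out 1 array.

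MHC class I antigen presentation showed the largest median of all 50 lists except neutrophil granules. Of its 16 tested members 6 were called higher and 0 lower, with a median log2 fold change of 0.48 in Snx5-/- and -0.04 in Snx5+/+ lungs. It shares 3 tested genes with the interferon list. Nlrc5, the transactivator that switches on MHC class I genes, had 9.60 and 9.38 in Snx5-/- air lungs, against 7.65 and 7.35 in Snx5-/- non-air lungs. It was detected on both Snx5-/- air arrays and on none of the Snx5-/- non-air arrays, and the Snx5+/+ arrays lay between 7.43 and 7.78. The log2 fold change of Nlrc5 was 1.99 (SE 0.14, adjusted p = 2.27e-05), and its level was at least 2.90-fold higher. Such a bound sets the mean of the detected group against, on each array of the dim group, the higher of the probe's own value and the lowest value of any detected probe. The proteasome subunit Psmb9, which shapes the peptides that class I molecules display, had 10.91 and 11.07 in Snx5-/- air against 9.90 and 10.18 in Snx5-/- non-air lungs (1.93-fold, adjusted p = 0.0143). Tap1, a chain of the transporter that carries those peptides into the endoplasmic reticulum, had 9.23 and 9.31 in Snx5-/- air against 8.64 and 8.73 in Snx5-/- non-air lungs (1.51-fold, adjusted p = 0.0210). The class I heavy chains H2-T23 and H2-Q7 rose 1.75-fold and 1.71-fold (adjusted p = 0.00365 and 0.00368), although probes for these closely related genes may not tell them apart. B2m, the light chain that all class I molecules share, had 14.81 and 14.80 in Snx5-/- air against 14.27 and 14.23 in Snx5-/- non-air lungs on its called probe (1.47-fold, adjusted p = 0.0315). The brighter B2m probe differed by 0.54 with an adjusted p of 0.0897. H2-D1 and H2-K1 differed by 0.58 and 0.42 and were not called (adjusted p = 0.161 and 0.198), and Psme2, a proteasome activator, was at -0.09. The call of Psmb9 was lost without any 1 of the 4 Snx5-/- arrays, that of H2-T23 without replicate 2 of either Snx5-/- group, and that of H2-Q7 without Snx5-/- non-air replicate 1.

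**Figure D2:**
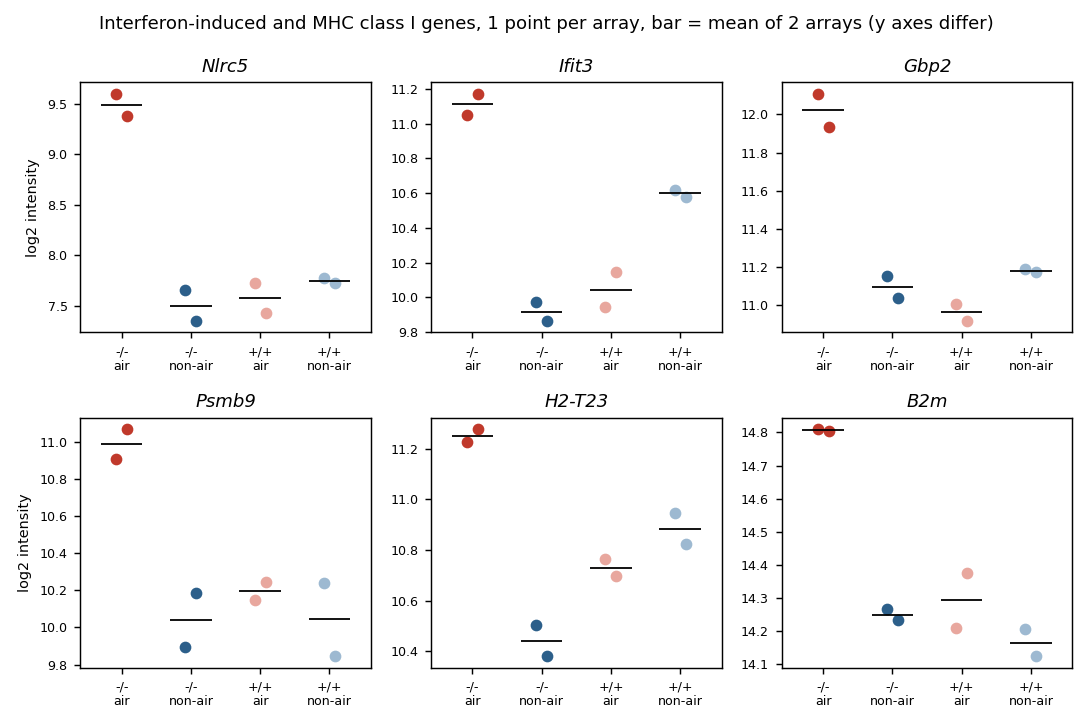
Log2 intensity of 6 interferon-induced and MHC class I genes in the 4 groups of 2 arrays, each point 1 array and each bar the mean of 2. For Nlrc5, Ifit3, Gbp2, Psmb9, H2-T23 and B2m both Snx5-/- air arrays lie above the 6 others.

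The promoters of these genes are shown because they were called together. Of the 11 called members of both lists, 10 had a window in the RefSeq promoter table (GRCm38.p6, 250 bases before to 50 after the start). An interferon-stimulated response element core, TTTCNNTTTC on either strand, stood in the windows of 6 of these 10 genes, against 3.64% of the tested genes that had a window and 3.44% of all 32851 windows. A gamma-activated site, TTCNNNGAA, stood in 1 of the 10, against 8.42% of the tested genes. The 10 genes come from lists of interferon-induced and MHC class I genes, so a high share of response elements can follow from the choice of lists. The uncalled members of these lists were not scanned, and nothing about the called genes is drawn from the share. Both motifs were chosen after the values had been seen, and both may overlap in one stretch, which they do not in the windows printed. The windows of Ifit3, Gbp2, Igtp and B2m hold a response element core and that of Psmb9, whose window overlaps that of the neighbouring and oppositely directed Tap1, holds neither motif. Capitals mark the motifs.
Ifit3 (chr19:34583279-34583578, plus strand): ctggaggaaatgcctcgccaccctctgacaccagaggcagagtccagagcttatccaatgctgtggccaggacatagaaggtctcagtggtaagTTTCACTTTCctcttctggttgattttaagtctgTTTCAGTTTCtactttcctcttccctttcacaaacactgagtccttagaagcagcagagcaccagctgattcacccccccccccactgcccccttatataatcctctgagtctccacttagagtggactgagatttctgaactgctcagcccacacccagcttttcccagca
Gbp2 (chr3:142620413-142620712, plus strand): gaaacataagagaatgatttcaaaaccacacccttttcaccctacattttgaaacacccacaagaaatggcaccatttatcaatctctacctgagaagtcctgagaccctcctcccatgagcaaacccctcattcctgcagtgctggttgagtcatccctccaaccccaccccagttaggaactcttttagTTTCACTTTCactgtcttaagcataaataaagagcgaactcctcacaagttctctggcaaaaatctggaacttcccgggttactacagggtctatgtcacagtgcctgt
Igtp (chr11:58199306-58199605, plus strand): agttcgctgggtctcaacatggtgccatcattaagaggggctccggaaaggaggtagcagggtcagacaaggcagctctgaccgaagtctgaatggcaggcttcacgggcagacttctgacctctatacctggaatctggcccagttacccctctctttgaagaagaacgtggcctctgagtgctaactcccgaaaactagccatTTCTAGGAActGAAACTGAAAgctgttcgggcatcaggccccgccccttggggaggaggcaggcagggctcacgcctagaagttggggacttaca
B2m (chr2:122147437-122147736, plus strand): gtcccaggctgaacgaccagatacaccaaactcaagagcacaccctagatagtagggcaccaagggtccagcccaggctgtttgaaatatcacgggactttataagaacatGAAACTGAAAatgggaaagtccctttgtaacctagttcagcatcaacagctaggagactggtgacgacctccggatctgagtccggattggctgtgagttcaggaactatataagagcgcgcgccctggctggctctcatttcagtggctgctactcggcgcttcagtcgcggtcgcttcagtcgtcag
Psmb9 (chr17:34187281-34187580, minus strand): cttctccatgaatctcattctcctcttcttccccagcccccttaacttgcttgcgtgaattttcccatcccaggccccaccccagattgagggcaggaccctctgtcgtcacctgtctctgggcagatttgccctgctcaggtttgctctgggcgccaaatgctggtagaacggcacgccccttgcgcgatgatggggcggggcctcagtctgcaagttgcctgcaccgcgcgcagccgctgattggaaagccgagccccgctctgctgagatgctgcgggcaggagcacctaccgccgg
Igtp also holds the gamma-activated site, as the first of its capital runs. Ifit3 holds the core at 2 places. A match in these letters is a description and was not tied to the differences by any test.

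The difference between air and non-air lungs depended on genotype for 46 of 9336 genes. In 22 (0.236%) the air difference was more positive in Snx5-/- than in Snx5+/+ lungs, and in 24 (0.257%) it was more negative. Of these 46 genes, 21 were also called in the air comparison of Snx5-/- lungs. The interferon list held 6 of the positive and 0 of the negative interactions. Nlrc5 had an interaction of 2.16 (SE 0.19, adjusted p = 0.000205), Ifit3 of 1.75 (SE 0.15, adjusted p = 0.000190) and Gbp2 of 1.14 (SE 0.15, adjusted p = 0.00395). Ifit3 stood at 9.94 and 10.14 in Snx5+/+ air, against 10.62 and 10.58 in Snx5+/+ non-air lungs, so its difference there ran the other way, by -0.56. The same held for Irgm2, Stat2 and Parp14, whose interactions were 1.11, 0.78 and 0.84 and whose differences in Snx5-/- lungs alone, of 0.41, 0.28 and 0.36, were not called. The count of interactions rested on the Snx5+/+ arrays as well, since it was 522 without Snx5+/+ non-air replicate 1 and 24 to 42 without any other array.

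Among immediate-early transcription factors, 6 of the 18 tested for it had a more negative air difference in Snx5-/- than in Snx5+/+ lungs, and 0 a more positive one. Of 15 immediate-early transcription factors tested in Snx5-/- lungs, 1 was called higher and 0 lower, with a median log2 fold change of 0.07, and their median in Snx5+/+ lungs was 0.74. Egr1, a zinc-finger factor induced by growth factors and stretch, had 11.61 and 11.62 in Snx5-/- air lungs, against 11.58 and 11.51 in Snx5-/- non-air lungs. In Snx5+/+ lungs the same probe had 14.49 and 14.49 with air, against 11.25 and 11.36 without. The interaction of Egr1 was -3.12 (SE 0.14, adjusted p = 4.08e-07), the most negative of all genes tested. Fos, a subunit of the AP-1 factor, had 11.10 and 10.71 in Snx5-/- air against 10.53 and 10.49 in Snx5-/- non-air lungs, and 13.91 and 14.05 in Snx5+/+ air against 10.67 and 10.72 in Snx5+/+ non-air lungs. Its interaction was -2.89 (SE 0.18, adjusted p = 9.28e-06). Fosb was not detected on any of the 4 Snx5-/- arrays (7.67 to 7.87) and had 10.83 and 10.72 in Snx5+/+ air lungs, with an interaction of -2.87 (adjusted p = 3.74e-06). Ccn1, a matrix protein induced by strain, had an interaction of -2.42 for its brightest probe (adjusted p = 8.11e-05), and the other 2 probes gave -1.75 and -1.40. Junb, Ier2 and Atf3 had interactions between -1.28 and -1.23. The phosphatase Dusp1, which shuts off MAP kinases, differed by 0.46 in Snx5-/- lungs (adjusted p = 0.0768) with an interaction of -1.21 (adjusted p = 0.00168). Zfp36, which marks short-lived messages for decay, differed by 0.35 with an interaction of -0.87. Vmp1, an autophagy protein whose locus also gives rise to a microRNA, had called interactions of -2.05, -2.01 and -1.03 on its 3 dimmer probes, and values of 0.63 and -0.13 on its 2 brighter ones.

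A few genes of this kind did rise in Snx5-/- air lungs. Bhlhe40, a repressor driven by stress and by the clock, had 12.01 and 11.84 in Snx5-/- air against 11.03 and 11.01 in Snx5-/- non-air lungs (1.87-fold, log2 fold change 0.91, SE 0.10, adjusted p = 0.00158). Its difference in Snx5+/+ lungs was 0.74, and the interaction of 0.16 had an adjusted p of 0.684. Dusp6, a phosphatase specific for ERK, had 14.40 and 14.21 in Snx5-/- air against 13.78 and 13.65 in Snx5-/- non-air lungs (1.5-fold, adjusted p = 0.0353), with 2 of its 3 tested probes called. Nfkbiz, an inhibitor-like cofactor of NF-κB, was lower in the air lungs, with 12.60 and 12.49 in Snx5-/- air against 13.11 and 13.09 in Snx5-/- non-air lungs (1.47-fold, adjusted p = 0.0353). Of 23 tested feedback genes of the immediate-early response, these were the only called members, 1 in each direction.

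**Figure D3:**
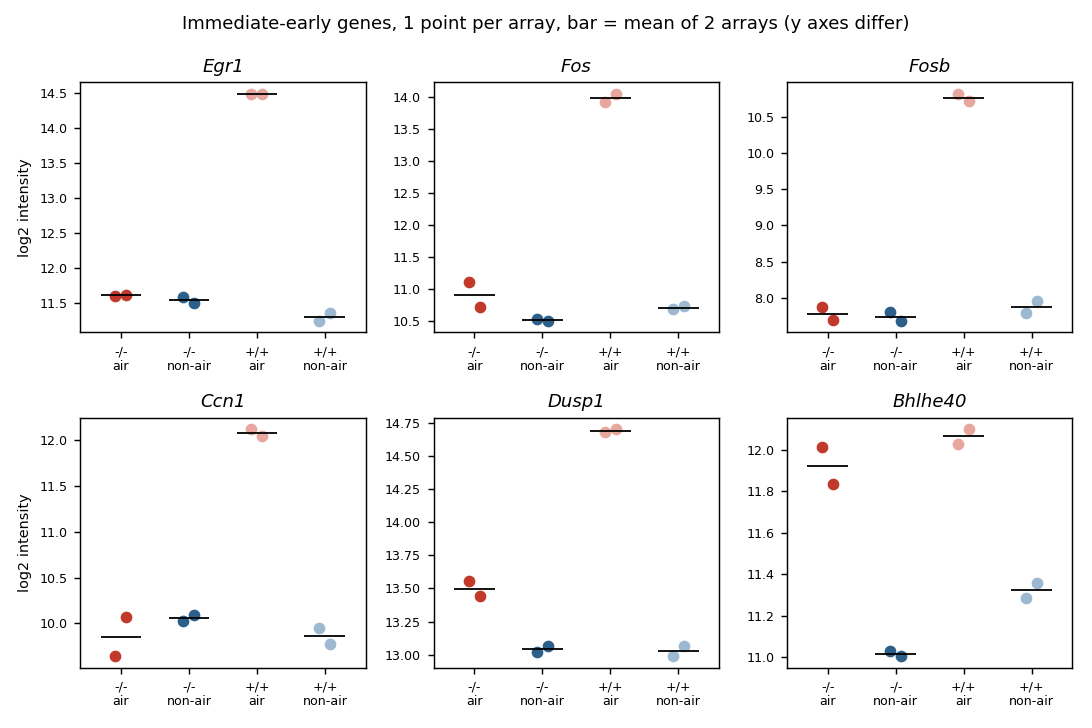
Log2 intensity of 6 immediate-early genes in the 4 groups of 2 arrays, each point 1 array and each bar the mean of 2. Egr1, Fos, Fosb, Ccn1 and Dusp1 are highest in the 2 Snx5+/+ air arrays, whereas Bhlhe40 is high in the air arrays of both genotypes.

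Several neutrophil genes were higher in Snx5-/- air lungs. Of 10 tested neutrophil granule genes 4 were called higher and 0 lower, 9 of 10 were positive, and the median was 0.55 in Snx5-/- and 0.61 in Snx5+/+ lungs, with 0 interactions. On all of the Snx5-/- arrays 8 of the 10 were detected, and the level needed for a test can fix a positive sign for dimmer genes. S100a9, a chain of the calcium-binding protein calprotectin, had 12.17 and 12.52 in Snx5-/- air against 11.38 and 11.29 in Snx5-/- non-air lungs (2.02-fold, log2 fold change 1.01, SE 0.16, adjusted p = 0.0168). Retnlg, a resistin-like product of neutrophils, had 10.20 and 10.29 in Snx5-/- air against 9.22 and 9.38 in Snx5-/- non-air lungs (1.93-fold, adjusted p = 0.0143). The antimicrobial peptide Camp and the granule protein Ngp rose 1.56-fold and 1.49-fold (adjusted p = 0.0143 and 0.0237). The highest member that was not called, S100a8, differed by 0.78 (adjusted p = 0.108). Summed over the list, the linear intensity was 31690 to 36080 in Snx5-/- air and 21260 to 21430 in Snx5-/- non-air lungs. In whole lung, more cells of a type and more RNA per cell cannot be told apart, and the part that neutrophil number had in these differences was not tested. Early granule genes such as Mpo and Elane stayed below the level needed for a test. The calls of S100a9, Retnlg, Camp and Ngp were each lost without either Snx5-/- non-air array or Snx5-/- air replicate 2. Those of Retnlg, Camp and Ngp were also lost in at least 1 further fit that left out 1 array.

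Other myeloid genes rose as well. Fcgr4, an activating receptor for IgG on neutrophils and macrophages, had 10.57 and 10.44 in Snx5-/- air against 9.05 and 9.06 in Snx5-/- non-air lungs (2.73-fold, log2 fold change 1.45, SE 0.12, adjusted p = 8.78e-05). Plac8, abundant in neutrophils and other immune cells, had 12.22 and 12.32 in Snx5-/- air against 11.13 and 11.17 in Snx5-/- non-air lungs (2.17-fold, adjusted p = 0.000914). Csta3, a stefin of a closely related gene family, had 10.36 and 10.40 in Snx5-/- air against 9.31 and 9.39 in Snx5-/- non-air lungs (2.04-fold, adjusted p = 0.0143). All 3 were above the 6 other arrays in both air arrays. In Snx5+/+ lungs Fcgr4 also rose with air, by 0.88 on the log2 scale (limma adjusted p = 0.00398). Plac8 and Csta3 differed there by 0.27 and 0.53. The interactions of these 3 genes, of 0.57, 0.84 and 0.50, were not called. Il1b, the inflammatory cytokine, was detected on both Snx5-/- air arrays and on none of the Snx5-/- non-air arrays and was at least 1.68-fold higher (adjusted p = 0.0143). Among 14 macrophage genes only C1qc, a chain of the complement starter C1q, was called (1.62-fold, adjusted p = 0.0155), while Lgals3, the brightest member, differed by -0.21. The summed macrophage level was 37010 to 38240 in Snx5-/- air against 35480 to 37360 in Snx5-/- non-air lungs, and these ranges overlap. Of 6 tested lymphocyte genes, 4 were detected on all of the Snx5-/- arrays. A gene that reached the level for a test in the air group alone could only be positive, so nothing is drawn from shared signs. The 6 lymphocyte genes were all positive and 0 were called, with a summed level of 7234 to 8468 in Snx5-/- air against 6232 to 6251 in Snx5-/- non-air lungs. Their part in the interferon and MHC class I differences was not tested.

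Vascular and stromal genes gave a few isolated calls. Edn1, the precursor of the vasoconstrictor endothelin-1, had 11.96 and 11.73 in Snx5-/- air against 10.89 and 10.88 in Snx5-/- non-air lungs (1.95-fold, log2 fold change 0.96, SE 0.11, adjusted p = 0.00158). The 4 Snx5+/+ arrays lay between these groups, from 11.04 to 11.20, and the interaction was 0.87 (adjusted p = 0.0330). It was the only called gene among 17 tested vasoactive and prostaglandin genes, in which Gucy1a1, a subunit of the nitric oxide receptor, differed by -0.10. Inmt, a methyltransferase abundant in adult lung, had 12.39 and 12.49 in Snx5-/- air against 11.45 and 11.47 in Snx5-/- non-air lungs (1.98-fold, adjusted p = 0.000622). Inmt in Snx5+/+ lungs was between 11.86 and 12.09, above the Snx5-/- non-air and below the Snx5-/- air arrays, and its interaction was 1.16 (adjusted p = 0.00210). Hes1, a repressor downstream of Notch, had 11.87 and 11.72 in Snx5-/- air against 11.05 and 11.16 in Snx5-/- non-air lungs (1.61-fold, adjusted p = 0.0126), and was the only one of 18 Notch pathway genes called. Hey1, another Notch target, differed by 0.17 (adjusted p = 0.672). Actg2, an actin of visceral smooth muscle, had 13.14 and 13.04 in Snx5-/- air against 12.30 and 12.28 in Snx5-/- non-air lungs (1.74-fold, adjusted p = 0.0143), and Acta2, the actin of vascular smooth muscle, differed by -0.02. Cardiac muscle genes, of which 11 were tested and 0 called, were all positive, with a summed level of 19730 to 21550 in Snx5-/- air against 17220 to 17600 in Snx5-/- non-air lungs. Only 8 of the 11 were detected on all of the Snx5-/- arrays, and the level needed for a test can fix the sign of dimmer genes. The study named 6 genes from earlier work on another mutant, that of the corepressor SMRT, with defective type I cells. Of these Inmt and Lgals3bp rose, and Klf2, Klf4, Zfp36 and Dusp1 had values of 0.40, 0.20, 0.35 and 0.46 without a call. The calls of Hes1 and Actg2 were lost without either Snx5-/- non-air array and in at least 1 further fit that left out 1 array. The air differences of Edn1 and Inmt stayed called without any 1 of the 8 arrays. The interaction of Edn1 lost its call in most of those fits, with values of 0.76 to 0.99 over all alternatives.

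The 12 lower genes held chemokines, plasma proteins and an embryonic globin. Cxcl1, which draws neutrophils, had 8.35 and 8.18 in Snx5-/- air against 9.48 and 9.66 in Snx5-/- non-air lungs (2.47-fold lower, log2 fold change -1.31, SE 0.11, adjusted p = 0.000214). The Snx5+/+ arrays, from 7.89 to 8.51, lay with the air lungs, and the interaction was -1.80 (adjusted p = 0.000205). Cxcl1 was the only one of the 24 tested genes on the list of chemokines and receptors called, and the lung chemokine Cxcl15 differed by 0.17. Outside that list, Ccl21c, one of several near-identical genes for a lymphatic chemokine, had 10.28 and 10.49 in Snx5-/- air against 11.06 and 11.22 in Snx5-/- non-air lungs (1.69-fold lower, adjusted p = 0.0328), with an interaction of -1.38. Gdf10, a secreted factor of the TGF-β family, had 10.06 and 10.02 in Snx5-/- air against 10.80 and 10.85 in Snx5-/- non-air lungs (1.72-fold lower, adjusted p = 0.00465). Its Snx5+/+ arrays lay at 10.66 to 10.98, with the non-air lungs. Hsd17b11, a lipid-droplet dehydrogenase, was lower by 1.45-fold on the 1 called probe of 2 (adjusted p = 0.0366), and the other probe differed by -0.45 (adjusted p = 0.0797). Without either Snx5-/- non-air array the calls of Ccl21c, Gdf10, Fga, Apoa1 and Hbb-y were lost, and that of Cxcl1 was not. Each of the lost calls also failed in at least 1 further fit that left out 1 array.

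Plasma proteins made by the liver had negative differences in 6 of 6 tested genes, with 3 called lower. Their median log2 fold change was -0.45, against 0.25 in Snx5+/+ lungs. For Fga, Ahsg, Apoa1, Apoa2 and Fgg only the Snx5-/- non-air group exceeded the level of 8 needed for a test. The filter thus fixed the negative sign of these 5 genes, so nothing is drawn from their shared direction. The fibrinogen chain Fga had 7.48 and 7.61 in Snx5-/- air against 8.43 and 8.34 in Snx5-/- non-air lungs and was detected on both non-air and on none of the air arrays, a fall of at least 1.31-fold (adjusted p = 0.00643). A second tested Fga probe differed by -0.55 and was not called (limma adjusted p = 0.0926). Ahsg, or fetuin-A, was at least 1.11-fold lower on its called probe (adjusted p = 0.0189), and its brighter probe differed by -0.63 (adjusted p = 0.0554). Apoa1, the protein of high-density lipoprotein, was not detected on any of the 4 arrays and allows no fold, though its log2 difference of -0.55 passed the test (adjusted p = 0.0284). Apoa2, Fgg and Trf differed by -0.35, -0.26 and -0.17 without a call, and Alb, Afp and Ttr lay below the level for a test. The summed level of the list was 17180 to 18640 in Snx5-/- air against 20130 to 20680 in Snx5-/- non-air lungs. Trf, at log2 intensities of 13.98 to 14.22 on these arrays, made up most of that sum. In Snx5+/+ lungs the sum was 17720 to 19420 with air against 20520 to 30020 without. Of the 6 genes, 5 were not detected on all of the Snx5-/- arrays. Among 10 erythroid genes, Hbb-y, an embryonic β-globin, had 9.67 and 10.03 in Snx5-/- air against 10.67 and 10.57 in Snx5-/- non-air lungs (1.71-fold lower, adjusted p = 0.0224, both probes called), and Hba-a1, an adult α-globin, differed by -0.03 at an intensity near the top of the scale. The part that blood or liver RNA had in these values was not tested.

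The lists of lung epithelial genes held no called member. Of 17 alveolar type I genes 0 were called, with a median of -0.001 and values from -0.15 to 0.33. Ager, the receptor that marks type I cells, had 14.73 and 14.68 in Snx5-/- air against 14.72 and 14.74 in Snx5-/- non-air lungs (log2 fold change -0.03, SE 0.10, adjusted p = 0.967). The water channel Aqp5 had 13.13 and 12.92 in Snx5-/- air against 12.66 and 12.72 in Snx5-/- non-air lungs (0.33, adjusted p = 0.276), with arrays that did not overlap. Pdpn, a type I membrane protein, differed by -0.11 (adjusted p = 0.811). The surfactant proteins Sftpa1, Sftpb, Sftpc and Sftpd differed by -0.03, 0.10, -0.03 and 0.06 (adjusted p between 0.850 and 0.973). Of 23 type II genes 18 were positive and 0 called, with a median of 0.11, and the median in Snx5+/+ lungs was -0.29. Secretory, ciliated and endothelial lists and the 17 genes of lung fluid and ion transport, which hold the sodium channel subunits and pumps that clear the airspace, had 0 called members each and medians between -0.10 and 0.02. A p above the threshold with 2 arrays a group does not show that these genes were equal.

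**Figure D4:**
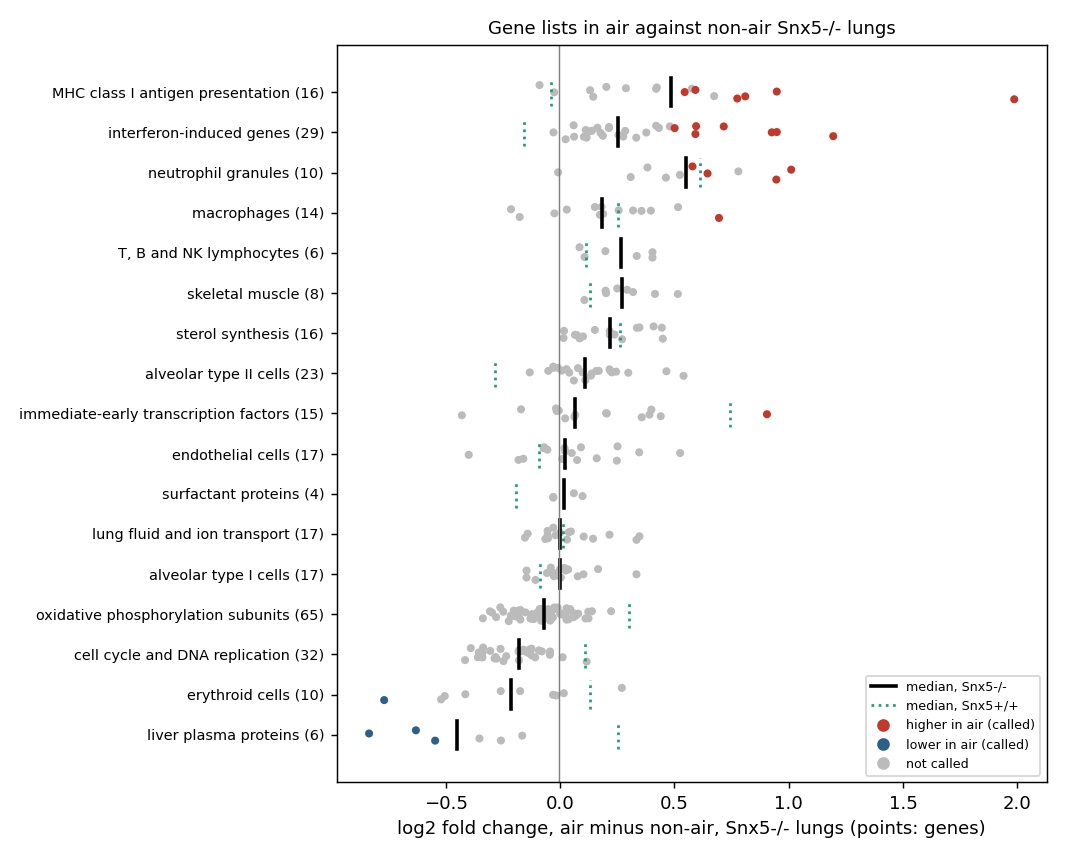
Log2 fold change in Snx5-/- lungs (air minus non-air) of each tested member of 17 gene lists, by its brightest probe, with the number tested in brackets, red and blue points for called genes, a black bar for the list's median and a dotted green bar for the median of the same genes in Snx5+/+ lungs. The medians of MHC class I (0.48) and interferon-induced genes (0.26) are above 0 in Snx5-/- and below 0 in Snx5+/+ lungs, while that of the immediate-early factors is 0.07 in Snx5-/- and 0.74 in Snx5+/+ lungs.

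Genes on chromosome 2, which carries Snx5, were called at a rate of 1.74% (13 of 747 tested), against 0.645% (54 of 8377) on the other autosomes together. Chromosome 16 had a higher rate, 2.36% (7 of 297), and chromosome 17 one of 1.48% (7 of 473). Of the 13 genes, 10 were higher and 3 were lower. Lrrc57, a leucine-rich repeat protein 416 genes from Snx5 in RefSeq order, had 10.35 and 10.16 in Snx5-/- air against 7.49 and 7.64 in Snx5-/- non-air lungs. It was not detected on the Snx5-/- non-air arrays, was at least 4.91-fold higher (log2 fold change 2.68, SE 0.13, adjusted p = 7.17e-07), and had 10.14 to 11.08 on the 4 Snx5+/+ arrays. Rmdn3, a tether between mitochondria and endoplasmic reticulum 471 genes away, had 10.60 and 10.53 in Snx5-/- air against 8.54 and 8.60 in Snx5-/- non-air lungs (3.99-fold, adjusted p = 7.17e-07), and 10.49 to 11.26 in Snx5+/+ lungs. A second Rmdn3 probe had 9.45 and 9.48 in Snx5-/- air against 9.47 and 9.39 in Snx5-/- non-air lungs (adjusted p = 0.96). Ccndbp1, a cyclin D-binding protein, had 10.16 and 10.16 in Snx5-/- air against 8.99 and 9.27 in Snx5-/- non-air lungs (2.04-fold, adjusted p = 0.00143). For Lrrc57, Rmdn3 and Ccndbp1, as for Rpap1, Tubgcp4, Prom2, Acoxl and Adamtsl2, both Snx5-/- non-air arrays were below the 6 others. Rpap1, a factor of RNA polymerase II, was called on 1 probe only (at least 1.81-fold higher, adjusted p = 0.00246), and its brighter probe differed by -0.11. All of the higher genes of chromosome 2 named in this paragraph but Adamtsl2 lie between 259 and 471 genes from Snx5 on the same side, as do B2m and the lower gene Tmem87a. The tested genes of that stretch were not counted, so no share of called genes can be given for it. Within 200 genes of Snx5 on either side, 2 of 82 tested genes were called (2.44%), with 0 higher and 2 lower.

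Tmem87a, a membrane protein of the Golgi, had 10.998 and 10.82 in Snx5-/- air against 11.54 and 11.52 in Snx5-/- non-air lungs (1.54-fold lower, adjusted p = 0.0252), with 9.15 and 9.06 in Snx5+/+ air and 10.96 and 10.77 in Snx5+/+ non-air lungs. Flrt3, an adhesion protein 31 genes from Snx5, had 11.88 and 11.42 in Snx5-/- air against 12.53 and 12.48 in Snx5-/- non-air lungs on a called probe (1.81-fold lower, adjusted p = 0.0183), and it was lower in the air lungs of both genotypes. The brightest Flrt3 probe had an adjusted p of 0.0865. Zcchc3, an RNA-binding protein on the other side of Snx5, was lower by 1.52-fold on the 1 called probe of 3 (adjusted p = 0.0156), and the other probes differed by -0.61 and -0.57 (adjusted p = 0.0593 and 0.0688). Without chromosome 2 in the fit, 45 genes were higher and 9 lower. The part that inherited chromosome 2 segments had in these values was not tested.

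**Figure D5:**
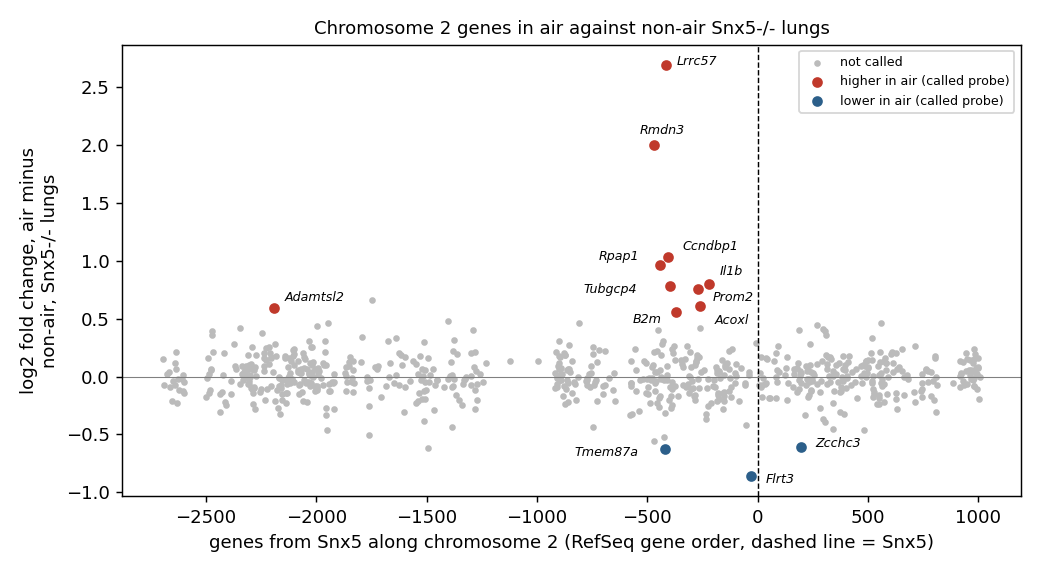
Log2 fold change in Snx5-/- lungs (air minus non-air) of the tested genes of chromosome 2 against their place in RefSeq gene order, counted in genes from Snx5 (dashed line), with called genes in red (higher) and blue (lower). Lrrc57 (2.68) and Rmdn3 (2.0) stand far above the other genes, and 11 of the 13 called genes lie to the left of Snx5 within 471 genes. The tested genes of that stretch were not counted, so its share of called genes is not given.

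The remaining lists held few calls or none. In all, 34 of the 50 lists had no called gene, and 38 of the 67 called genes belonged to no list. Cell cycle and DNA replication genes had negative differences in 30 of 32 cases, with a median of -0.18 and 0 called. Sterol synthesis genes were all positive (16 of 16, median 0.22), with 0 called, and had a median of 0.26 in Snx5+/+ lungs. Of these 16 genes, 14 were detected on all of the Snx5-/- arrays. Subunits of oxidative phosphorylation (65 tested, median -0.07), mitochondrial ribosomal proteins (70, -0.06) and cytosolic ribosomal proteins (52, -0.04) had 0 called members. The 32 hypoxia genes, the 24 glucocorticoid-response genes and the 26 chaperones had medians of -0.02, 0.05 and 0.06 and 0 calls.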

How the data were processed

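RNA of whole E18.5 mouse lungs was amplified, labelled and hybridised by the authors to Illumina MouseRef-8 v2 bead arrays, 2 for each of 4 groups. The deposited value table holds log2 intensities, to which the authors applied quantile normalization after the log2 step. A second deposited table holds non-normalized intensity values (107.594 to 71060.3) and a detection p-value per probe, and it was used for detection, for the check of the labels and for alternatives. For the probe annotation, no genome build is given in the sources used here. Of 25697 probes, 23978 were paired with exactly 1 gene, and 1719 with none or with more than 1. By their gene ID 23962 were matched to a current symbol.

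All 8 arrays were fitted together in 4 groups by limma's lmFit and eBayes (limma 3.58.1, R 4.3.3, 4 residual and 7.21 prior degrees of freedom), with no block. Probes were tested where the mean of a compared group exceeded 8, the cutoff of the study's methods, which left 13451 probes. Those with a gene name off X and Y stood for 9124 genes. The call threshold was 0.05 for the p adjusted by Benjamini-Hochberg over the tested probes, with a log2 fold change beyond 0.3531. A gene counted as called where any probe passed, and its brightest tested probe stood for it unless stated. The interaction is the air difference in Snx5-/- minus that in Snx5+/+ lungs. P-values measure only the spread between these arrays, which the labels do not tie to separate litters, and the number of arrays limits the precision.

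Named genes were up to 15 of largest change in each direction among called autosomal genes with non-overlapping arrays, up to 4 called members of each list described (with up to 2 of its brightest members where fewer than 2 were called), all members of lists of up to 6 genes, up to 6 of the largest interactions, and Snx5 with 7 alveolar markers. Other genes, among them Gbp3, Tap1, B2m, Irgm2, Stat2, Parp14, Junb, Ier2, Atf3, Vmp1, Tubgcp4, Prom2, Acoxl and Adamtsl2, were chosen after their values were seen. The comparison and the gene lists were chosen with earlier results of these data known. Of the Snx5-/- arrays, those with the same replicate number had deviations that correlated at 0.0534. Alternatives changed the normalization, the background, the filter, the probe summary, the block, the array weights and the arrays used.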

Additional observations from a re-analysis of the deposited data

Results flagged for a closer look

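Each gene in the next paragraph stood out because its air difference in Snx5-/- lungs differed from that in Snx5+/+ lungs by a test of the interaction (adjusted p under 0.05 from limma). The values are the air difference in Snx5-/- minus that in Snx5+/+ lungs, on the log2 scale. In all 46 genes met this threshold, and the number was 24 to 522 when 1 array was left out.

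The difference was more positive in Snx5-/- lungs for Nlrc5 (2.16), Lrrc57 (2.0), Ifit3 (1.75), Rmdn3 (1.28), Inmt (1.16), Gbp2 (1.14), Tmem87a (1.13), Igtp (1.09), H2-T23 (0.96), H2-Q7 (0.88) and Edn1 (0.87). Tmem87a was lower with air in both genotypes, and its value is positive because the fall was larger in Snx5+/+ lungs. The difference was more negative in Snx5-/- lungs for Egr1 (-3.12), Fos (-2.89), Fosb (-2.87), Ccn1 (-2.42), Vmp1 (-2.05), Cxcl1 (-1.80), Ccl21c (-1.38), Fga (-1.30), Dusp1 (-1.21), Ahsg (-1.01), Gdf10 (-0.99), Apoa1 (-0.91) and Zfp36 (-0.87). The value of Vmp1 comes from a dimmer probe, and its brighter probes had no called interaction. Fosb, Fga, Ahsg and Apoa1 were near or below detection on most arrays. The interactions of Lrrc57, Rmdn3, Nlrc5, Ifit3, Inmt, Gbp2, Cxcl1, Fga, Dusp1, Egr1, Fos, Fosb and Ccn1 stayed past the threshold in each of 8 fits that left out 1 array.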

How the results depend on the processing

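The counts were 55 higher, 12 lower and 46 interactions. Under the labels of the intensity columns, 12 genes were higher and 55 lower. With background correction by neqc, 29 were higher, 6 lower and 29 had an interaction. A plain t-test is only a part of the combined test in the study's methods. It gave 146 higher and 62 lower genes at an unadjusted p under 0.05 with the fold cutoff. After Benjamini-Hochberg adjustment it gave 0 and 0. In limma 1076 genes had an unadjusted p under 0.05, but that count used no fold cutoff. Leaving out 1 array gave 13 to 74 higher genes, 1 to 21 lower genes, 24 to 522 interactions and 8 to 21 lists with a called gene. The lower ends came from the Snx5-/- arrays: without Snx5-/- non-air replicate 1 or 2, 13 and 14 genes were higher and 1 lower in each case, and without Snx5-/- air replicate 1 or 2, 20 and 16 were higher and 5 and 3 lower. Leaving out a Snx5+/+ array gave 74 higher and 21 lower genes (either non-air array) or 42 and 7 (either air array). Interactions numbered 24 without Snx5-/- non-air replicate 2, 30 and 26 without Snx5+/+ air replicate 1 or 2, and 522 without Snx5+/+ non-air replicate 1. The cause was not tested. With the replicate number as a block 47 genes were higher, 9 lower and 43 had an interaction. Leaving out chromosome 2, an alternative chosen after seeing the data, gave 45, 9 and 41.

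Of 34 genes that the naming rule chose and whose brightest probe was called, 19 stayed called under alternatives with all arrays that recomputed single genes. The labels of the intensity columns, the fit without a fold cutoff and the plain t-tests were followed by counts only. The t-test with Benjamini-Hochberg adjustment called 0 higher and 0 lower genes. The sign changed for small differences. Median scaling gave -0.063 for Sftpd and -0.029 for Cebpb, and averaging probes gave 0.42 for Rpap1 and 0.15 for Ccn1, whose brightest probes were negative. When 1 array was left out, uncalled values crossed 0 and ranged over -0.090 to 0.050 for Acta2, -0.207 to 0.146 for Sftpa1, -0.081 to 0.021 for Sftpc, -0.031 to 0.187 for Cebpb, -0.418 to 0.014 for Ccn1, -0.055 to 0.0013 for Ager, -0.355 to 0.013 for Klf6, -0.151 to 0.078 for Csnk1e and -0.209 to 0.0064 for Gucy1a1. Dim probes limit Fga, Ahsg, Apoa1 and Il1b to bounds or no fold.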

Other observations

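Called genes outside the lists were chosen here after their values were seen, and several are known from myeloid cells. Aif1, an actin-bundling protein of macrophages, had 9.44 and 9.55 in Snx5-/- air lungs, against 8.64 and 8.67 in Snx5-/- non-air lungs (1.79-fold, limma adjusted p = 0.0143), with both of its probes called. The receptors Trem3 and Clec4d rose 1.65-fold and 1.5-fold, and the inflammatory protease Casp1 1.45-fold (adjusted p = 0.00643, 0.0302 and 0.0302). For these 4 genes both Snx5-/- air arrays lay above the 6 others. Gvin1, a large GTPase of a family induced by interferon with several close copies, had 11.51 and 11.23 in Snx5-/- air against 10.53 and 10.36 in Snx5-/- non-air lungs (1.9-fold, adjusted p = 0.00392), and its interaction was 1.15.

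Tmem100, an endothelial target of BMP signalling, had 12.34 and 12.45 in Snx5-/- air lungs, against 11.63 and 11.80 in Snx5-/- non-air lungs (1.6-fold, adjusted p = 0.0168). Sox7, an endothelial transcription factor, rose 1.47-fold on 1 of 2 probes (adjusted p = 0.0390), and the other probe differed by 0.53 (adjusted p = 0.0522). In both genes the Snx5-/- non-air arrays were below the 6 others, while 0 of the 17 genes of the endothelial list were called.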
